A study of Mus musculus with 12 samples.

Results

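Transforming growth factor beta (TGF-beta) signalling was followed through 9 genes in mouse mammary tumours: the ligands Tgfb1, Tgfb2 and Tgfb3, the activin subunit Inhba, the latency protein Ltbp1, the receptors Tgfbr1 and Tgfbr2, the signal transducer Smad3 and the inhibitor Smad7. The genes were chosen by symbol, as 9 of the 41009 genes in the deposited expression table, with earlier results of these data known. All 9 passed the filter on low values, a value of 1 FPKM or more in 3 or more of the 12 libraries. FPKM is the number of sequenced fragments per kilobase of transcript, scaled to the library's depth, so levels can be compared between genes.

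The 12 libraries came from bulk tumours grown from 4T1 cells, a BALB/c mammary carcinoma line, here carrying the fluorescent protein mCherry. Female BALB/c mice of 4 to 5 weeks received 5e+06 cells in the mammary fat pad and were split at random into 4 groups 7 days later. Each group was injected intraperitoneally with 1 agent, at different doses: Ctrl-Fc at 5 mg/kg (Ctrl), VHH-OD-Fc at 3.5 mg/kg, VHH-PD-1-Fc at 2.6 mg/kg, and the molecule with both arms, VHH-OD-PD-1-Fc, at 4.3 mg/kg. Every group, Ctrl included, thus bore the same tumour line and received an Fc protein, the constant part of an antibody. A VHH is a nanobody, the single binding domain of a camelid antibody, and PD-1 restrains activated T cells from their surface. The series title speaks of nanobodies to endogenous digoxin-like substances, while the labels leave OD unexplained. There were 3 libraries per group, and no label says that they came from separate animals, so every p-value rests on a spread among libraries that could be technical. The series' design text describes another tumour model and was not used.

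TGF-beta is secreted bound to its own propeptide, and proteins such as LTBP1 tether that latent complex to the extracellular matrix until integrins, proteases or thrombospondin release it. The free ligand binds the type II receptor TGFBR2, which activates the type I receptor TGFBR1. That receptor then phosphorylates SMAD2 and SMAD3, which enter the nucleus with SMAD4 and switch on genes such as Tgfbi and the inhibitor Smad7. Activin A, a dimer of the INHBA protein, uses its own receptors and the same SMADs. In carcinomas the pathway is known for driving matrix production by fibroblasts and for restraining T cells, and tumour cells, fibroblasts, macrophages and platelets can all supply the ligand.

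Promoter sequences of RefSeq (GRCm38.p6) were found for 7 of the 9 genes. That of Smad3, a gene also called lower with both arms below, is not shown. The 3 sequences shown are of genes called lower with the PD-1 arm in at least 1 comparison below. Each is the 250 bases before the annotated start, 5′ to 3′ on the gene's strand, and capitals mark matches to GGGCGG (the GC box), TATAAA (the TATA box) or CAGAC (a SMAD-binding element), searched on both strands. Tgfbr1 has a second annotated start, not shown. The sequences are those at chr4:47352972-47353221 on the + strand for Tgfbr1, chr9:116175364-116175613 on the − strand for Tgfbr2 and chr13:16011601-16011850 on the + strand for Inhba.
Tgfbr1: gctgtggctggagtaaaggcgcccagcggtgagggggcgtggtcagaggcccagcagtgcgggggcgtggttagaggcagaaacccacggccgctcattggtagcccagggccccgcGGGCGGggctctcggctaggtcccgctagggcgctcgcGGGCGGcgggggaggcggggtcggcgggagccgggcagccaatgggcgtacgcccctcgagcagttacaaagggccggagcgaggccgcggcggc
Tgfbr2: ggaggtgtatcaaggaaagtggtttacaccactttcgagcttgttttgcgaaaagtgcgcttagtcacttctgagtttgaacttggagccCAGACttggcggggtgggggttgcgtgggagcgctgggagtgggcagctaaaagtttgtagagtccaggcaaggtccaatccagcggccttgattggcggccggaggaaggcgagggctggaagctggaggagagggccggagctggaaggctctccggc
Inhba: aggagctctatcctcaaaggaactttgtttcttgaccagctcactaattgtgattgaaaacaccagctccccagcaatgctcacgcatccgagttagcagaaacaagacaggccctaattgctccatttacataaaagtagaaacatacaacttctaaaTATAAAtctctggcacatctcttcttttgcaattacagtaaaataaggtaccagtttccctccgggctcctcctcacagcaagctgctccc
The 3 windows are unlike in composition. The Tgfbr1 window is 74.8% G and C and holds 2 GC boxes, the Tgfbr2 window is 58.4% G and C and holds 1 CAGAC, and the Inhba window is 43.2% G and C and holds 1 TATAAA. Among 32851 promoter windows of the same length, 32.7% hold a GC box, 42.2% a CAGAC and 12.4% a TATAAA. A match describes the letters only and says nothing of binding.

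Several features of the libraries touch every result that follows. The 6 libraries with a PD-1 arm differed from the 6 without it across much of the transcriptome, and no label gives a batch, so the PD-1 arm and a batch cannot be told apart. Summed FPKM was 327792 to 345596 without the arm and 388142 to 401179 with it. Genes above 0 FPKM numbered 24924 to 26203 per library without the arm. With it they numbered 25553 in VHH-PD-1-Fc replicate 2 and 30257 to 31676 in the other libraries, a split whose cause was not tested. Long genes were lower with the arm: in VHH-PD-1-Fc against Ctrl the median log2 fold change was 0.17 in the 25% of genes that are shortest (up to 1566 bases) and -0.37 in the 25% that are longest (from 4392 bases). Of the 9 genes, 8 were longer than the median tested gene (2884 bases) and 6 were of 4392 bases or longer. Libraries of VHH-OD-PD-1-Fc were the most alike, with a median SD per gene of 0.0747 on the log2 scale, where Ctrl had 0.140, VHH-OD-Fc 0.123 and VHH-PD-1-Fc 0.247. VHH-PD-1-Fc replicate 2 stood apart: it was the highest or the lowest of all 12 libraries for 6 of the 9 genes. Its summed macrophage markers reached 2964 FPKM, where replicates 1 and 3 of that group had 1029 and 1539. Most of that sum was C1qa, C1qb and C1qc (1237, 983.3 and 500.7). Epithelial markers of the tumour cells were above 0 in every group, with sums of 1231 FPKM in Ctrl replicate 1 to 3718 in VHH-PD-1-Fc replicate 1. Depth, estimated from the smallest steps between values, was 44.1 to 61.65 M counted units (M is 1e+06) per library, and whether a unit is a fragment or 1 read of a pair is not given in the sources used here. In bulk tumours, fewer cells of a type and less RNA per cell cannot be told apart.

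In Ctrl tumours 8 of the 9 genes had means between 15.6 and 27.0 FPKM, and Tgfb2 alone was low, at 1.19 ± 0.53 FPKM (SD, n = 3). Tgfb1 was highest (27.0 ± 1.08), above Smad3 (24.5 ± 0.19) without overlap of their libraries. Tgfbr2, Ltbp1, Tgfb3, Inhba, Smad7 and Tgfbr1 followed at 22.2, 22.0, 19.7, 18.2, 16.9 and 15.6 FPKM, and neighbours in that order overlapped. Tgfb2 was also lowest in the other 3 groups, and the highest mean was that of Smad3 with VHH-OD-Fc, Tgfb3 with VHH-PD-1-Fc and Tgfb1 with both arms.

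**Figure D1:**
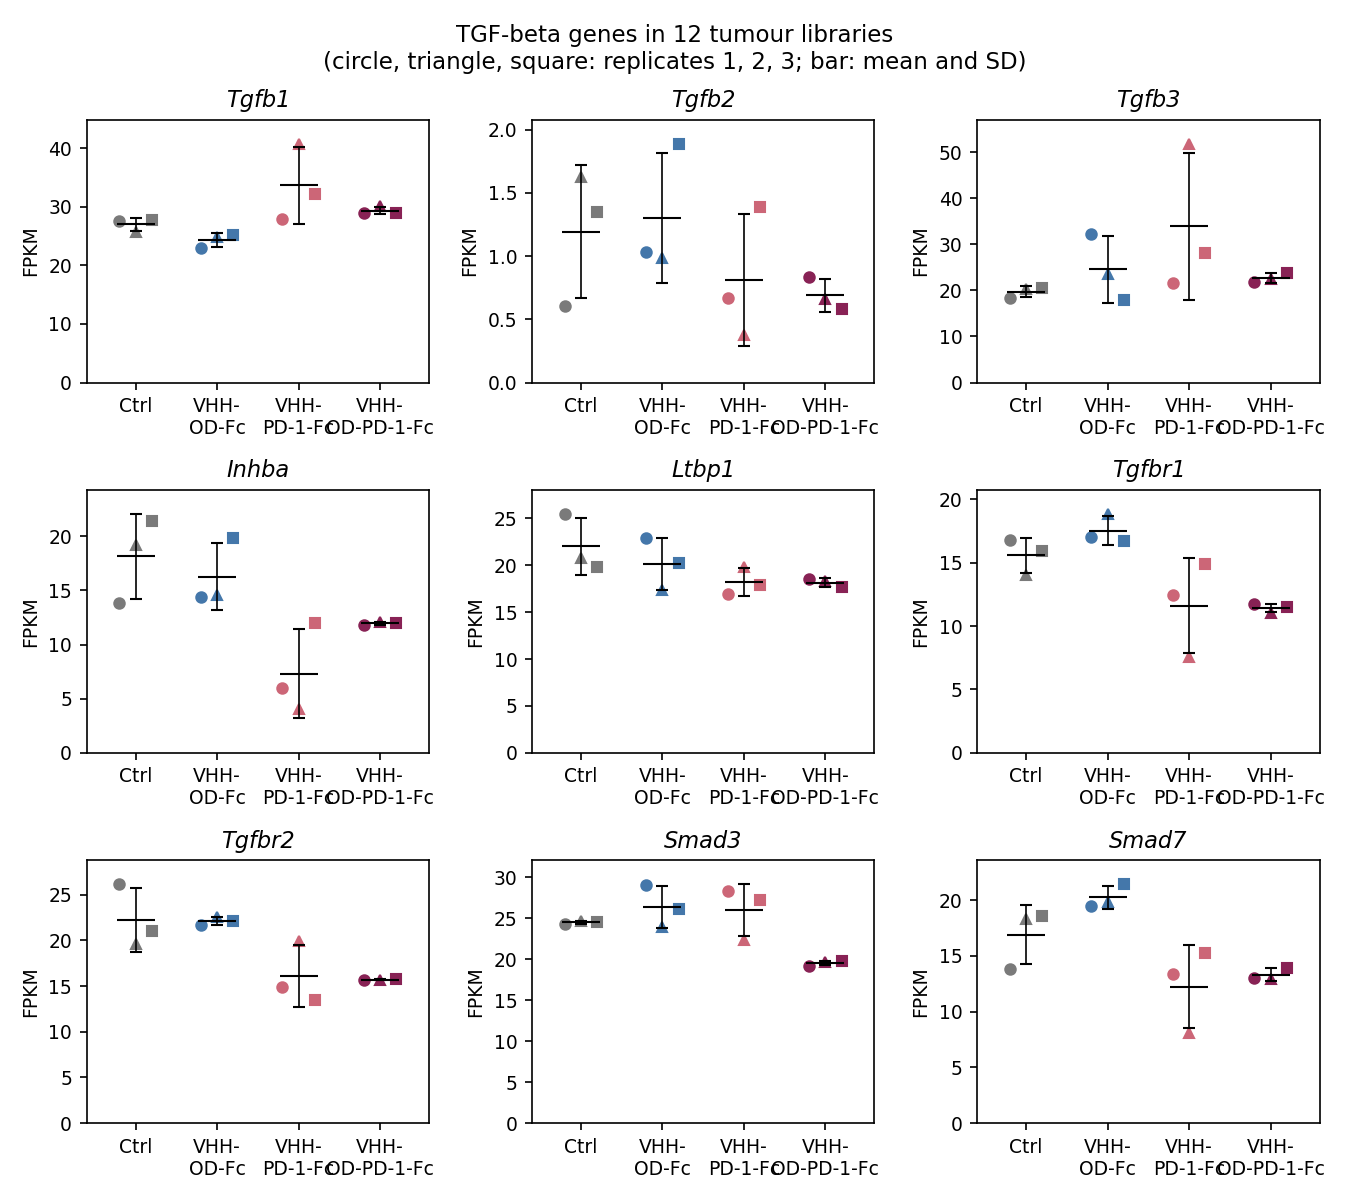
FPKM (vertical axes, from 0) of the 9 genes in 4 groups of 3 libraries, each symbol 1 library (circle, triangle and square for replicates 1, 2 and 3) and each bar the group's mean with its SD. Inhba lies at 13.8 to 21.5 in the 6 Ctrl and VHH-OD-Fc libraries and at 4.01 to 12.1 in the 6 with the PD-1 arm, while Ltbp1 differs little between groups.

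Among the ligands, Tgfb1, the main isoform of immune cells and of most tumours, was measured at 27.5, 25.8 and 27.7 FPKM in Ctrl replicates 1, 2 and 3. It was at 23.0, 24.8 and 25.2 in VHH-OD-Fc, at 27.9, 40.8 and 32.2 in VHH-PD-1-Fc and at 28.9, 30.1 and 29.0 in VHH-OD-PD-1-Fc. All 6 libraries with the PD-1 arm were thus above all 6 without it, by a narrow gap, and VHH-PD-1-Fc replicate 2 was highest. Tgfb3, an isoform made largely by stromal cells, spread more widely. Its values were 18.4, 20.4 and 20.5 in Ctrl, 32.2, 23.5 and 17.9 with VHH-OD-Fc, 21.6, 51.9 and 28.2 with VHH-PD-1-Fc, and 21.9, 22.5 and 23.8 in VHH-OD-PD-1-Fc. Every library with the PD-1 arm lay above Ctrl, but VHH-OD-Fc overlapped every group. Tgfb2 lay between 0.380 and 1.89 FPKM over the 12 libraries, and its groups overlapped except that all VHH-OD-PD-1-Fc values were below those of VHH-OD-Fc. In GENCODE M21, exons of Tgfb2 and Tgfb3 overlap unnamed genes on the opposite strand, which were listed at no more than 0.522 FPKM. Strand use in the counting is not given, so reads of such pairs cannot be told apart.

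Inhba, whose product forms activin A, had the widest spread of the 9 genes (SD 0.627 over the 12 log2 values). It was at 13.8, 19.2 and 21.5 FPKM in Ctrl and at 14.4, 14.5 and 19.8 in VHH-OD-Fc. In VHH-PD-1-Fc it was at 6.00, 4.01 and 12.0, and in VHH-OD-PD-1-Fc at 11.8, 12.1 and 12.0. All 6 libraries with the PD-1 arm were below all 6 without it, and the lowest were VHH-PD-1-Fc replicates 2 and 1. Ltbp1, the tether of latent TGF-beta, had the narrowest (SD 0.166), at 25.5, 20.8 and 19.8 FPKM in Ctrl and 16.9 to 22.9 in the other groups.

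Of the receptors, Tgfbr2 was at 26.2, 19.6 and 21.0 FPKM in Ctrl and at 21.7, 22.6 and 22.1 in VHH-OD-Fc. With the PD-1 arm it was at 14.9, 19.9 and 13.5 (VHH-PD-1-Fc) and at 15.7, 15.6 and 15.8 (VHH-OD-PD-1-Fc). Only VHH-PD-1-Fc replicate 2 reached the Ctrl range. Tgfbr1, the type I receptor kinase, was at 16.8, 14.0 and 15.9 in Ctrl, 17.1, 18.9 and 16.7 with VHH-OD-Fc, 12.4, 7.54 and 14.9 with VHH-PD-1-Fc, and 11.7, 11.1 and 11.5 in VHH-OD-PD-1-Fc. Its VHH-OD-PD-1-Fc values were below those of both groups without the arm, and VHH-PD-1-Fc replicate 3 overlapped Ctrl.

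The SMAD genes parted from each other. Smad3, the receptor-activated transducer, was at 24.3, 24.6 and 24.6 FPKM in Ctrl, 29.1, 23.9 and 26.1 with VHH-OD-Fc, and 28.3, 22.4 and 27.2 with VHH-PD-1-Fc. In VHH-OD-PD-1-Fc it was at 19.2, 19.6 and 19.8, below all other 9 libraries. Smad7, which blocks the receptors and is itself induced by the pathway, was at 13.8, 18.3 and 18.6 in Ctrl and 19.5, 19.9 and 21.4 in VHH-OD-Fc. It was at 13.4, 8.08 and 15.3 in VHH-PD-1-Fc and 13.0, 12.9 and 14.0 in VHH-OD-PD-1-Fc, below VHH-OD-Fc in every library and overlapping Ctrl.

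Differences were tested with limma on log2(FPKM + 1), in 1 fit of all 12 libraries, with calls at an adjusted p (Benjamini-Hochberg, over the 14306 genes that passed the filter) under 0.05. The log2 fold changes given are on that scale, which understates changes of low genes such as Tgfb2. Values for comparisons that share a control group are set side by side and are not independent of each other. The share of all genes whose groups do not overlap is not given here. Statements that groups did not overlap therefore describe the libraries and add no weight to genes without a call.

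The question of VHH-OD-Fc against Ctrl was what the OD arm did by itself. None of the 9 genes was called, and neither was any other gene (0.0% called in limma, smallest adjusted p = 0.108, with 449 genes at an unadjusted p under 0.05). Member values ran from -0.14 (Tgfb1, 95% interval -0.40 to 0.12) to 0.26 (Tgfb3, -0.33 to 0.86). Smad7 was at 0.26 (-0.15 to 0.67), and its libraries, like those of Tgfb1, did not overlap between the groups. Inhba was at -0.14, Ltbp1 at -0.12, Tgfb2 at 0.08, Smad3 at 0.10 and Tgfbr1 at 0.16. For Tgfbr2 the value was 0.00 with an interval of -0.30 to 0.30, so a shift of that size in either direction is within the error.

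VHH-PD-1-Fc against Ctrl asked the same of the PD-1 arm. Inhba fell by 1.29 on the log2 scale (SE 0.29, limma adjusted p = 0.0042) and Tgfbr2 fell by 0.45 (SE 0.14, adjusted p = 0.020). These 2 of 9 stood against 46.9% of all genes called, and 32.3% called lower. Tgfb1 was at 0.29 (SE 0.12, adjusted p = 0.063) and Tgfb3 at 0.66 (SE 0.27, adjusted p = 0.067), both with groups that did not overlap and neither called. Tgfbr1 was at -0.44 and Smad7 at -0.47, with adjusted p of 0.069 and 0.060. These 4 values and their calls moved with single libraries. Without VHH-PD-1-Fc replicate 2 they were at 0.15 (Tgfb1), 0.31 (Tgfb3), -0.18 (Tgfbr1) and -0.22 (Smad7), none called. Tgfb1 (0.41) and Tgfb3 (0.92) were called without replicate 1 of that group, Tgfbr1 (-0.63) and Smad7 (-0.64) without its replicate 3, and Smad7 (-0.60) also without Ctrl replicate 1. Ltbp1 was at -0.25 (adjusted p = 0.10), Smad3 at 0.08 and Tgfb2 at -0.28, none of them called.

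The 2 calls differed in how they stood against genes of like length. The 500 genes nearest in transcript length had a median of -0.40 for both Inhba (6390 bases) and Tgfbr2 (8092 bases), so Inhba lay 0.89 below its neighbours and Tgfbr2 0.05 below. With length and GC trends removed from each library, Inhba was at -0.86 and still called, and Tgfbr2 was at -0.10 and not called. That setting called Tgfb1 (0.45), Tgfb3 (0.87) and Smad3 (0.38) higher. The Tgfbr2 call was also lost without Ctrl replicate 1 (-0.33), without VHH-PD-1-Fc replicate 1 (-0.41) and without replicate 3 (-0.34), whereas Inhba was called in all 12 leave-one-out fits (-1.67 to -0.99).

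With both arms, VHH-OD-PD-1-Fc against Ctrl, Tgfbr2 fell by 0.47 on the log2 scale (SE 0.14, limma adjusted p = 0.018) and Smad3 fell by 0.31 (SE 0.10, adjusted p = 0.028). That is again 2 of 9, where 42.2% of all genes were called and 27.1% called lower. Inhba was at -0.54 (SE 0.29, adjusted p = 0.15), Tgfbr1 at -0.41 (0.090), Ltbp1 at -0.26 (0.10), Smad7 at -0.31 (0.20) and Tgfb2 at -0.35 (0.27). Leaving out a VHH-PD-1-Fc library, which changes only the pooled spread here, gave a call to Inhba (replicate 3), Smad7 (replicate 2) and Tgfbr1 (either of these). The libraries of Inhba, Ltbp1 and Tgfbr1 all lay below Ctrl and those of Tgfb1 (0.11) and Tgfb3 (0.19) all above, without a call. Neither call held with the length and GC trends removed (Tgfbr2 -0.16, Smad3 -0.05) or with the 3 alike libraries of VHH-OD-PD-1-Fc taken as 1 sample (adjusted p = 0.19 and 0.24). The Smad3 call was also lost without any 1 of the 6 libraries compared (-0.32 to -0.30), and that of Tgfbr2 without Ctrl replicate 1 (-0.35) or VHH-OD-PD-1-Fc replicate 1 (-0.47) or 2 (-0.46).

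Against VHH-OD-Fc in place of Ctrl, more of the 9 genes passed. In VHH-PD-1-Fc against VHH-OD-Fc, Tgfb1 rose by 0.43 (SE 0.12, limma adjusted p = 0.013), where 14.2% of all genes were called higher. Inhba fell by 1.15 (adjusted p = 0.0085), Smad7 fell by 0.73 (0.010), Tgfbr2 fell by 0.45 (0.021) and Tgfbr1 fell by 0.60 (0.022), where 28.4% of genes were called lower. In all, 5 of 9 were called against 42.6% of all genes. Tgfb3 was at 0.39, Tgfb2 at -0.36, Ltbp1 at -0.13 and Smad3 at -0.02, none called. With the length and GC trends removed, Tgfb1 (0.56) and Inhba (-0.72) were called and the other 3 were not. The Tgfb1 call was lost when each library was rescaled to a fixed total (0.22, adjusted p = 0.13). The Tgfbr1 call was lost without VHH-OD-Fc replicate 2 (-0.55), and without the 3 libraries that stood apart it was at -0.29. For Tgfbr2 the call was lost on leaving out replicate 1 (-0.41) or 3 (-0.34) of VHH-PD-1-Fc, and likewise replicate 2 (-0.44) or 3 (-0.45) of VHH-OD-Fc.

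For VHH-OD-PD-1-Fc against VHH-OD-Fc, the 4 calls were all lower: Smad3 (-0.41, limma adjusted p = 0.0086), Tgfbr2 (-0.47, 0.019), Tgfbr1 (-0.57, 0.028) and Smad7 (-0.57, 0.032). The background was 39.9% of genes called, 24.5% lower. Tgfb2 was at -0.42, Inhba at -0.40, Ltbp1 at -0.14, Tgfb3 at -0.07 and Tgfb1 at 0.26, none called, and Tgfb1 was called without VHH-PD-1-Fc replicate 1 or 2, which changes only the pooled spread here. No call held with the length and GC trends removed (values of -0.17, -0.16, -0.20 and -0.31) or with the 3 alike libraries counted as 1 sample. The Tgfbr1 and Smad7 calls were each lost without any 1 of the 6 libraries compared, and that of Tgfbr2 without VHH-OD-Fc replicate 2 or 3 or any VHH-OD-PD-1-Fc library (-0.47 to -0.46).

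**Figure D2:**
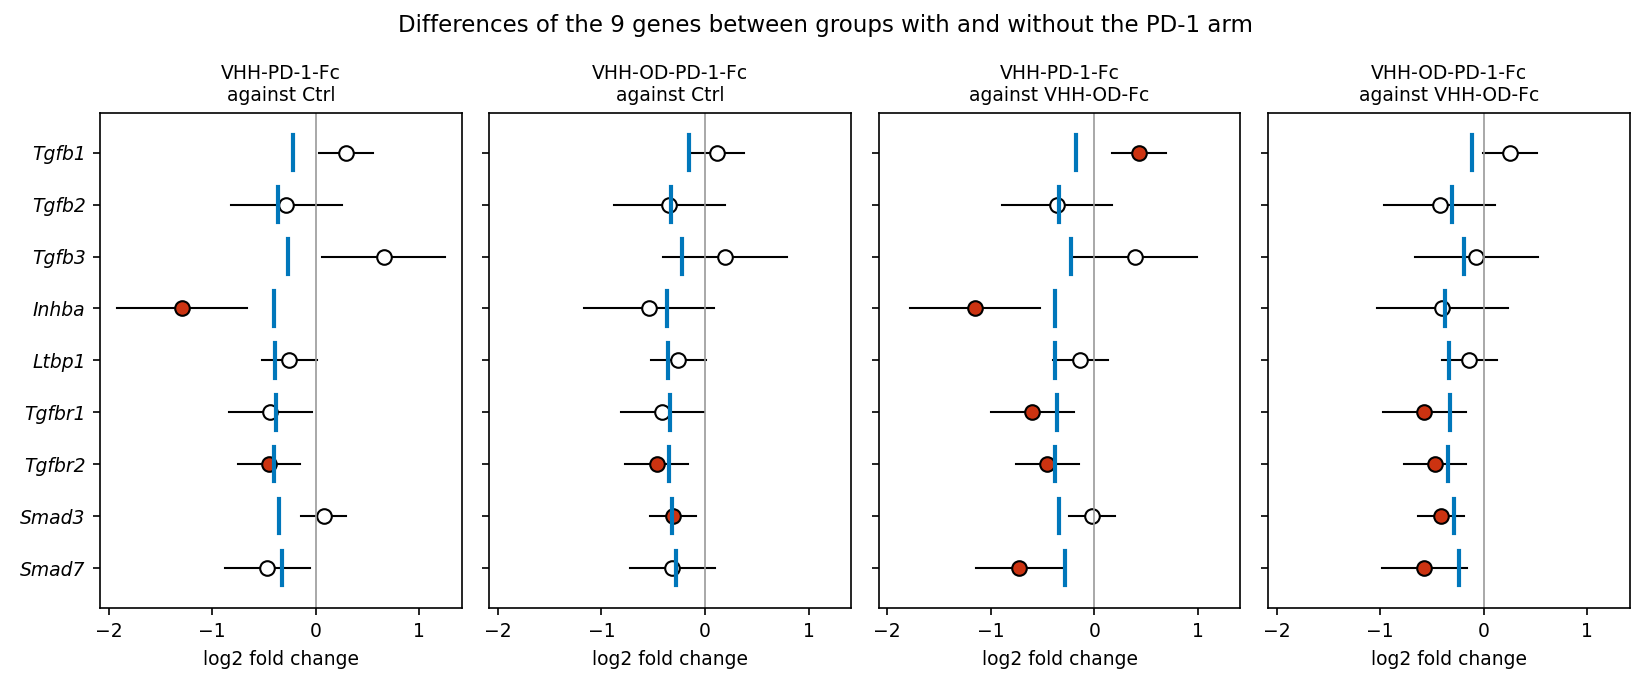
Log2 fold changes of the 9 genes (horizontal axes, log2 of FPKM + 1) in 4 comparisons of groups with the PD-1 arm against groups without it, with 95% intervals; filled circles passed an adjusted p of 0.05 and blue bars are medians of the 500 genes nearest in length. Inhba in VHH-PD-1-Fc lies 0.89 below its bar against Ctrl, Tgfbr2 has its bar inside the interval in every panel, and Tgfb1 lies above its bar in every panel.

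What the OD arm adds beside the PD-1 arm was addressed by VHH-OD-PD-1-Fc against VHH-PD-1-Fc. None of the 9 genes was called in limma, where 0.839% of all genes were, and 2211 of the 14306 genes had an unadjusted p under 0.05. Smad3 was nearest, at -0.39 (SE 0.10, 95% interval -0.61 to -0.17, unadjusted p = 0.0027, adjusted p = 0.10), with every VHH-OD-PD-1-Fc library below every VHH-PD-1-Fc library. Without VHH-PD-1-Fc replicate 2 it was at -0.49 with an adjusted p of 0.028, the only call in 12 leave-one-out fits (-0.49 to -0.32). Of the 12 settings (-0.49 to -0.39) 1 called Smad3. That setting leaves out the 3 libraries that stood apart, the same replicate among them. Inhba was at 0.75 (0.12 to 1.38, adjusted p = 0.24) and its groups overlapped through VHH-PD-1-Fc replicate 3. Without that library it was at 1.13 and was called, the only 1 of 12 leave-one-out fits to do so. None of the 12 settings called Inhba (0.44 to 0.85). Tgfbr1 (0.02, interval -0.38 to 0.43), Tgfbr2 (-0.02, -0.32 to 0.28) and Ltbp1 (0.00, -0.27 to 0.26) had intervals around 0. Tgfb3 was at -0.46, Tgfb1 at -0.18, Tgfb2 at -0.06 and Smad7 at 0.15.

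Whether the OD arm acted differently with and without the PD-1 arm was tested as the difference of those 2 effects. None of the 9 genes was called, against 0.112% of all genes (limma, 1709 genes at an unadjusted p under 0.05). Smad3 was at -0.49 (SE 0.14, adjusted p = 0.23), Tgfb3 at -0.73 (SE 0.38, adjusted p = 0.49) and Inhba at 0.90 (SE 0.40, adjusted p = 0.42), and the other 6 lay between -0.14 (Tgfb2 and Tgfbr1) and 0.12 (Ltbp1), with Smad7 at -0.11, Tgfb1 at -0.03 and Tgfbr2 at -0.02. Since doses differ between agents, the 4 groups do not form a balanced factorial.

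The rest of the pathway was read from 4 lists of 78 further genes, of which 68 were tested. Against Ctrl, VHH-PD-1-Fc had 36 of them called lower and 3 higher, and VHH-OD-PD-1-Fc 26 lower and 3 higher. Over all genes 32.3% and 27.1% were called lower, and 46.9% and 42.2% in either direction, so the 29 of 68 in VHH-OD-PD-1-Fc (42.6%) were at the background share. Their medians were -0.49 and -0.44, beside -0.19 and -0.14 over all genes. In VHH-OD-Fc against Ctrl 0 of the 68 were called in limma. With the length and GC trends removed the counts were 15 lower and 6 higher in VHH-PD-1-Fc, and 11 lower and 5 higher in VHH-OD-PD-1-Fc. In that setting 2215 of all 13533 genes were lower and 2921 higher in VHH-PD-1-Fc, and 2071 and 2597 in VHH-OD-PD-1-Fc. The same background applies to the list counts with trends removed below. With the 3 libraries of VHH-OD-PD-1-Fc taken as 1 sample, fewer of the 68 and fewer of all genes were called in that group.

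Of 16 genes of ligand release and binding, 5 were called against Ctrl in VHH-PD-1-Fc and 6 in VHH-OD-PD-1-Fc, all lower. These counts are near the 32.3% and 27.1% of all genes called lower, and below the 46.9% and 42.2% called in either direction. Thbs1, the thrombospondin that frees latent TGF-beta, was at 51.6, 59.0 and 49.7 FPKM in Ctrl and at 26.3, 10.7 and 20.1 in VHH-PD-1-Fc. It fell by 1.52 there and by 1.43 in VHH-OD-PD-1-Fc (limma adjusted p = 0.00066 and 0.0011). Inhbb, the second activin subunit, was at 8.85 to 11.3 FPKM in Ctrl, 4.39 to 4.84 in VHH-PD-1-Fc and 3.53 to 4.01 in VHH-OD-PD-1-Fc, and fell by 0.95 and 1.21. Fstl3, a secreted antagonist of activins, fell by 1.43 and 1.59. These 3 calls held in every setting that tested the gene. Dcn, a matrix proteoglycan that binds TGF-beta, fell by 1.16 in VHH-PD-1-Fc, a call lost with the length and GC trends removed or with library quality weights, and was at -0.53 in VHH-OD-PD-1-Fc, not called.

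Ltbp3, another tether of latent TGF-beta, separated the 2 groups with the PD-1 arm. It was at 82.3, 104.6 and 93.5 FPKM in Ctrl and 105.5, 87.2 and 83.4 in VHH-PD-1-Fc, but at 50.7, 48.4 and 49.8 in VHH-OD-PD-1-Fc, where it was below all other 9 libraries. The difference between the 2 groups was itself called (-0.87, SE 0.13, limma adjusted p = 0.024). It was lost with the 3 alike libraries counted as 1 sample, with library quality weights, with a block on the replicate number and without any 1 of the 3 VHH-OD-PD-1-Fc libraries.

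Among 9 other receptors of the family tested, 6 were called lower and 1 higher in VHH-PD-1-Fc against Ctrl, and 7 lower and 1 higher in VHH-OD-PD-1-Fc, where 46.9% and 42.2% of all genes were called. The activin receptors moved apart. Acvr2a, a type II receptor, was at 2.89, 2.21 and 2.68 FPKM in Ctrl, 1.21, 0.609 and 1.43 in VHH-PD-1-Fc and 0.949, 0.877 and 1.02 in VHH-OD-PD-1-Fc. Its paralog Acvr2b was at 1.23, 0.844 and 0.885 in Ctrl, and at 2.68, 4.17 and 2.49 and 2.96, 2.75 and 2.58 in these 2 groups. Acvr2a fell by 0.80 and 0.88 and Acvr2b rose by 1.03 and 0.93 (adjusted p of 0.0017 or less for all 4). Acvr1b, the activin type I receptor, fell by 0.80 and 0.70, and the endothelial receptor Acvrl1 by 0.72 and 0.65. With the length and GC trends removed 3 receptors were lower and 1 higher in VHH-PD-1-Fc and 2 lower and 1 higher in VHH-OD-PD-1-Fc.

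SMADs and their regulators were called lower in 8 of 16 cases and higher in 1 in VHH-PD-1-Fc against Ctrl, and lower in 7 and higher in 2 in VHH-OD-PD-1-Fc. That is 9 of 16 called in each, beside 46.9% and 42.2% of all genes. With length and GC trends removed 0 were lower in either, and 4 and 3 were higher. Smad2, the partner of Smad3, was at 5.22, 5.04 and 4.88 FPKM in Ctrl, 3.57, 3.42 and 3.65 in VHH-PD-1-Fc and 3.35, 3.41 and 3.61 in VHH-OD-PD-1-Fc, a fall of 0.41 and 0.44. Smad4, the shared SMAD, was at 21.2, 25.2 and 24.4 in Ctrl, 25.0, 31.3 and 31.1 in VHH-PD-1-Fc and 30.5, 29.4 and 31.1 in VHH-OD-PD-1-Fc. It rose by 0.29 and 0.35 (limma adjusted p = 0.035 and 0.017), and neither call held with each library rescaled to a fixed total. The Smad4 calls held in 6 and 10 of 12 settings and in 4 and 9 of 12 leave-one-out fits. Its VHH-PD-1-Fc libraries overlapped Ctrl. The inhibitory Smad6, the closest relative of Smad7, fell by 0.48 and 0.51, and the co-repressor Ski by 0.42 and 0.49. The calls of Smad2, Smad6 and Ski were all lost with the trends removed.

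Of 27 target genes tested, 17 were called lower and 1 higher in VHH-PD-1-Fc against Ctrl, and 6 lower and 0 higher in VHH-OD-PD-1-Fc; the difference between those counts was not tested. Over all genes 46.9% and 42.2% were called, and 32.3% and 27.1% called lower, so the target genes were above the background share in VHH-PD-1-Fc and below it in VHH-OD-PD-1-Fc (22.2% called). Their medians against Ctrl were -0.88 and -0.46, beside -0.19 and -0.14 over all genes, and 26 and 21 of the 27 values were negative. These shares and medians are of the values as deposited. With length and GC trends removed fewer of the 68 listed genes were called lower. The count for target genes alone in that setting is not given here. Tgfbi, a matrix protein named for its induction by TGF-beta, was at 102.4, 81.6 and 98.6 FPKM in Ctrl, 37.9, 46.7 and 34.2 in VHH-PD-1-Fc and 59.1, 59.4 and 57.2 in VHH-OD-PD-1-Fc, and fell by 1.24 and 0.67 (limma adjusted p = 9.8e-05 and 0.0023). It was called lower in all 12 settings in VHH-PD-1-Fc, and in VHH-OD-PD-1-Fc in all but the one that counts its libraries as 1 sample, where its sign did not change.

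Il11, a cytokine induced by TGF-beta in stroma and tumour cells, was at 8.32, 12.9 and 14.3 FPKM in Ctrl, 3.72, 6.36 and 10.1 with VHH-OD-Fc, 4.32, 1.48 and 2.91 with VHH-PD-1-Fc and 6.92, 8.33 and 7.60 in VHH-OD-PD-1-Fc, and fell by 1.75 in VHH-PD-1-Fc. Against Ctrl it was at -0.79 in VHH-OD-Fc and -0.55 in VHH-OD-PD-1-Fc, neither called. Angptl4, a secreted lipase inhibitor, was at 5.64, 2.25 and 5.72 in VHH-PD-1-Fc and between 10.3 and 16.9 in all other libraries. It fell by 1.22 there and was the only target called between VHH-OD-PD-1-Fc and VHH-PD-1-Fc (1.25 higher with both arms, adjusted p = 0.0499), a call that held in 2 of 12 settings. Fn1, fibronectin, was at 337.0 to 441.1 FPKM in Ctrl, 314.2 to 410.8 in VHH-PD-1-Fc and 239.7 to 244.4 in VHH-OD-PD-1-Fc, and fell by 0.73 in the latter, a call lost with the trends removed or with its libraries taken as 1 sample. Id3, better known as a target of bone morphogenetic proteins, was the 1 target that rose in VHH-PD-1-Fc (0.62, adjusted p = 0.021), at 108.8, 95.2 and 69.7 against 47.0, 68.4 and 61.3 in Ctrl, and that call held in 7 of 12 settings. The differences between VHH-OD-PD-1-Fc and VHH-PD-1-Fc were not called for Il11 (1.21, adjusted p = 0.11), Fn1 (-0.56, 0.15) or Id3 (-0.53, 0.21).

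**Figure D3:**
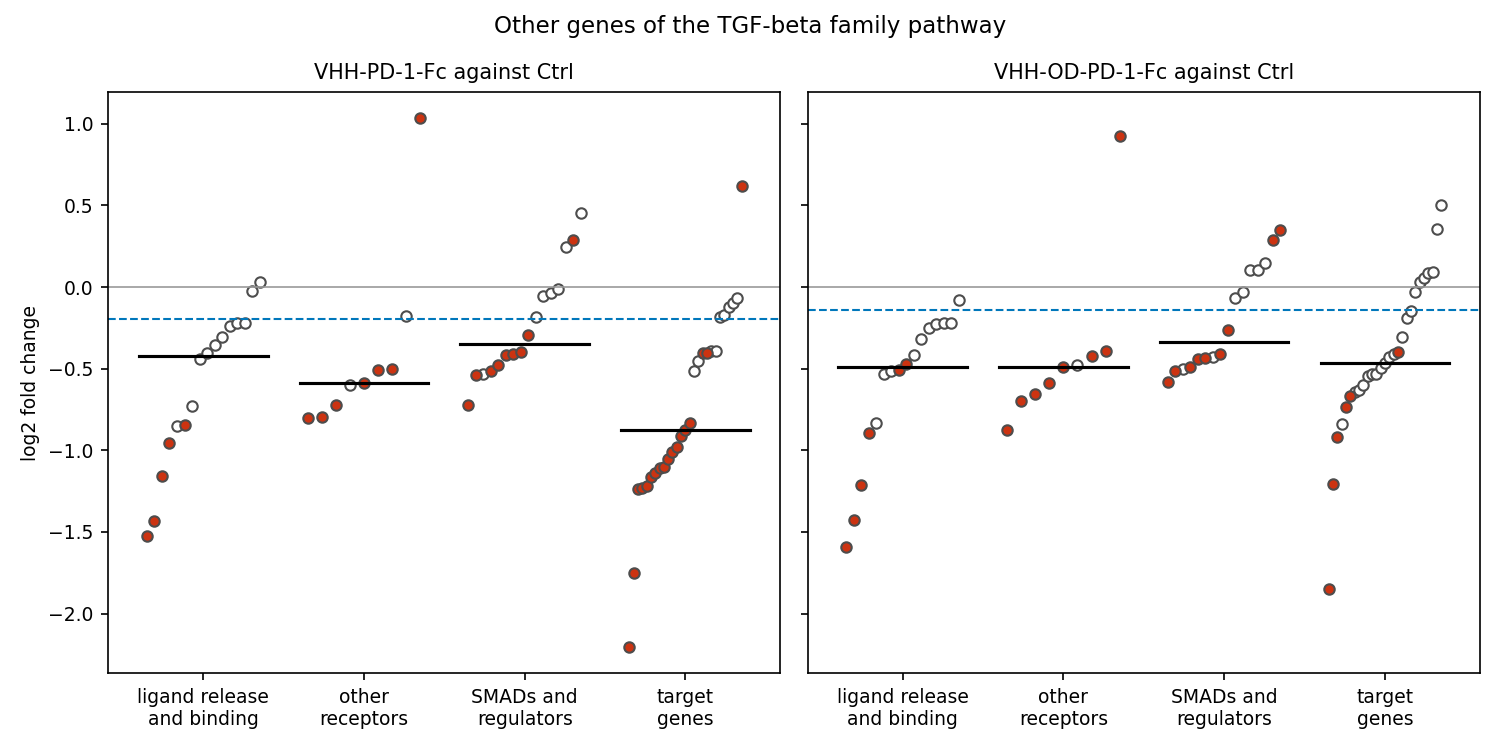
Log2 fold changes against Ctrl (vertical axis, log2 of FPKM + 1) of the 68 tested genes in 4 lists, each circle 1 gene and filled where adjusted p was under 0.05; black bars are list medians and the dashed line is the median of all genes. Target genes in VHH-PD-1-Fc have the lowest median (-0.88), and Acvr2b (1.03) is the highest point.

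Against VHH-OD-Fc the lists gave like counts. In VHH-PD-1-Fc 39 of the 68 genes were called lower and 1 higher, with a median of -0.54 beside -0.16 over all genes, of which 28.4% were called lower. In VHH-OD-PD-1-Fc 34 were called lower and 1 higher, with a median of -0.49 beside -0.11 over all genes, of which 24.5% were called lower. The 1 higher gene was Acvr2b in both (0.60 and 0.49). Its call at 0.60 was lost with only the groups compared, and that at 0.49 with no filter, rescaled to a fixed total or with VHH-OD-PD-1-Fc as 1 sample, and also without replicate 1 or 3 of VHH-OD-Fc or any 1 library of VHH-OD-PD-1-Fc. Collagen Col1a2 fell by 1.52 in VHH-PD-1-Fc and by 0.84 in VHH-OD-PD-1-Fc, and Ccn2, the connective tissue growth factor, fell by 1.28 in VHH-OD-PD-1-Fc. The Col1a2 call at 0.84 lower was lost with median of ratios, with the trends removed, with VHH-OD-PD-1-Fc as 1 sample, and without replicate 1 or 2 of either group. The Ccn2 call was lost with VHH-OD-PD-1-Fc as 1 sample and without VHH-OD-Fc replicate 3.

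Many of the targets are matrix genes that fibroblasts express, so markers of that and other cell types are given beside them. Over all genes, 32.3% were called lower in VHH-PD-1-Fc against Ctrl and 27.1% in VHH-OD-PD-1-Fc. Called higher were 2092 and 2158 of the 14306 genes. Of 10 fibroblast markers 5 were called lower in VHH-PD-1-Fc against Ctrl and 3 in VHH-OD-PD-1-Fc, and none higher; the second count is near its background, as are those of T cell markers below. Their summed level was 193.7 to 248.6 FPKM in Ctrl, 228.2 to 294.2 under VHH-OD-Fc, 123.4 to 210.7 in VHH-PD-1-Fc and 190.6 to 198.3 in VHH-OD-PD-1-Fc. Of 6 tested endothelial markers 4 were lower in each group with the PD-1 arm, and the sum over 8 was 31.0 to 47.9 in Ctrl, 23.0 to 31.4 in VHH-PD-1-Fc and 23.7 to 26.9 in VHH-OD-PD-1-Fc. Of 6 markers of pericytes and smooth muscle, 3 and 4 were lower. Tumour epithelium had 1 of 9 markers higher and none lower in VHH-PD-1-Fc against Ctrl, and none in either direction in VHH-OD-PD-1-Fc. Neutrophil markers summed to 1908 to 1963 in VHH-OD-PD-1-Fc and 624.4 to 917.2 in Ctrl, with 2 of 7 higher. Most of that sum was S100a9 and S100a8 (means of 1220 and 497.9 FPKM with both arms). Csf3r and Cxcr2 had lower means than in Ctrl (19.6 against 21.6 and 4.34 against 5.58), and the other listed markers had higher ones. In VHH-PD-1-Fc 2 of 7 were lower, which is near the background. Of 6 tested T cell markers 2 were lower in each group with the PD-1 arm, of 8 macrophage markers 1, and of 3 platelet markers 2 and 1. B cells had 0 and 1 of 2 tested markers lower, adipocytes 1 and 0 of 3, and skeletal muscle 0 of 5 in either group, with none higher. No marker was at 0 throughout a group, and the part of these cell types in the changes of TGF-beta genes was not tested.

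**Figure D4:**
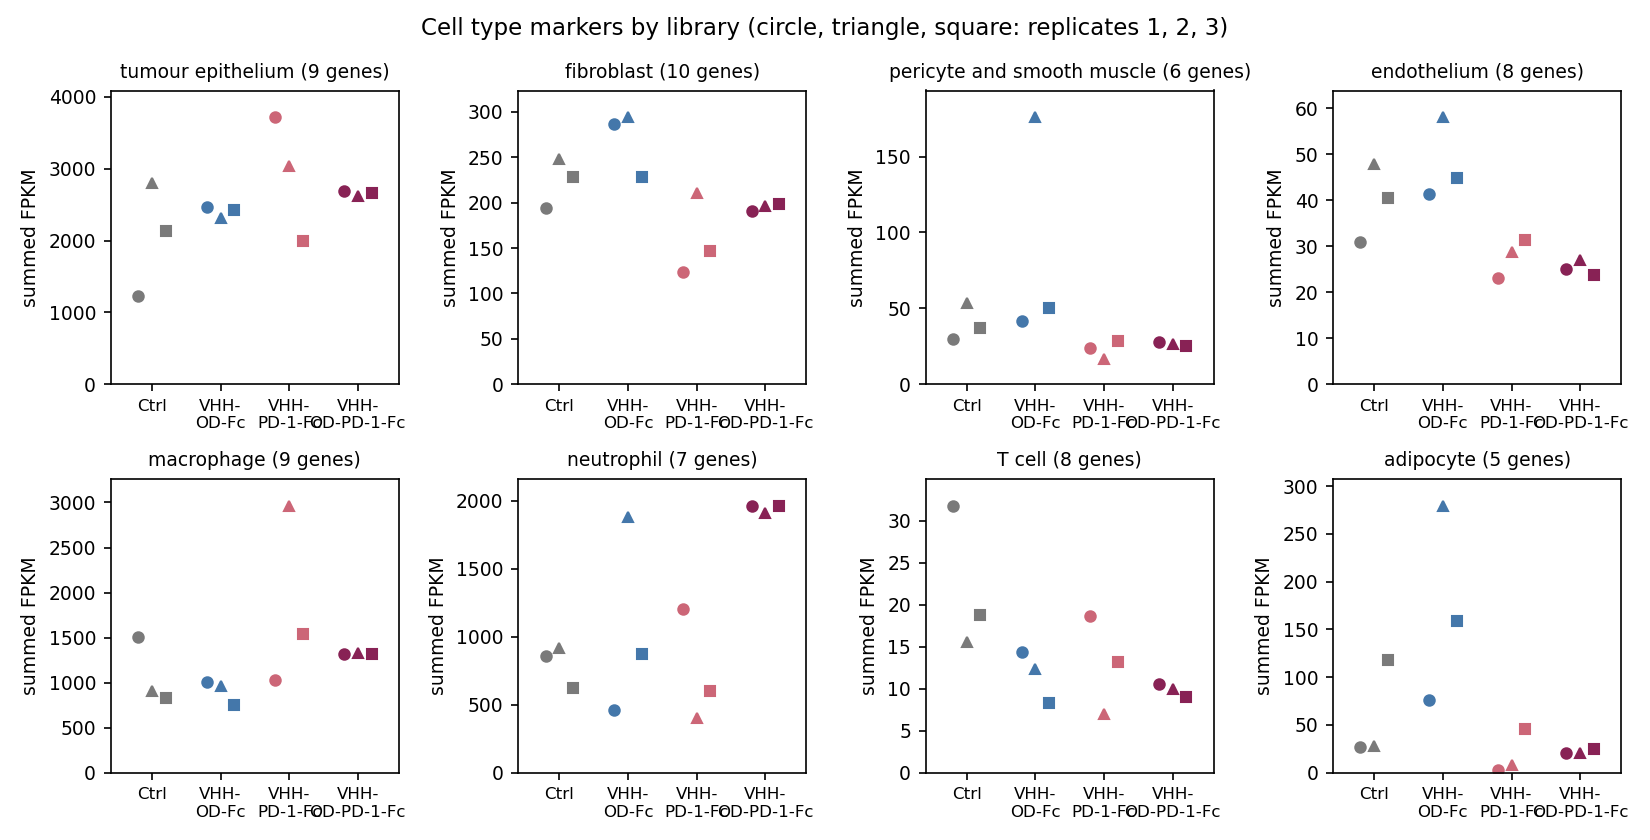
Summed FPKM (vertical axes, from 0) of 8 lists of cell type markers, each symbol 1 of 12 libraries (circle, triangle and square for replicates 1, 2 and 3). Endothelial and pericyte sums are low in both groups with the PD-1 arm, and VHH-PD-1-Fc replicate 2 has the highest macrophage sum (2964).

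For each of the 9 genes, the 2 most alike genes were sought among 11060 named genes by Pearson's r of log2 values, as the lower of r over the 6 libraries without and r over the 6 with the PD-1 arm. These correlations describe the libraries, which share tumour line, depth and cell makeup, and carry no test. Tgfbr2 was most like Axl, a receptor tyrosine kinase (r = 0.95 and 0.99), and Tgfb3 most like Islr, a gene of mesenchymal cells (0.96 and 0.97). Tgfb1 went with Pars2 and Adamtsl4, Inhba with Nudcd2 and Tmem29, and Tgfbr1 with Clk1, a splicing kinase, and Taf7. Smad3 was most like Ahnak (0.89 and 0.90) and Smad7 most like Spty2d1 (0.98 and 0.96). Ltbp1 had the weakest best match, Lair1 (0.88 and 0.92), and Tgfb2 was most like Camsap2 (0.96 in both sets).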

How the data were processed

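RNA-seq of 12 tumour libraries in 4 groups of 3 was analysed. Poly(A) RNA was sequenced as 150 bp pairs, per the labels' protocols. The submitters' processing notes name HISAT2 2.2.1, fastp 0.22.0 and, against the mouse symbols of the table, the human build GRCh38. The sources used here do not give the quantifier, its annotation, strand use or filters. The authors deposited 1 table of FPKM values, which were used as deposited. VHH-OD-Fc columns are headed OD-Fc.

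The 9 genes and all lists were chosen with earlier results of these data known. limma 3.58.1 in R 4.3.3 was fitted to log2(FPKM + 1) with a pseudocount of 1, a mean per group and a trend of variance on mean (8 residual and 3.03 prior degrees of freedom), for 6 pairwise contrasts and 1 difference of differences, two-sided. The script was tested on simulated data. Transcript lengths and GC content were taken by symbol from GENCODE M21 (94.6% of tested genes). Low FPKM values of genes with 1 annotated transcript were whole multiples of a step within 0.05, which gave the depth. Counts were not recovered, since the unit counted is unknown, so no count model was used.

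All 9 genes are named in every comparison. Of the 4 lists, up to 4 called genes of smallest p per list, direction and comparison could be named, and for each of the 9 genes the 2 most alike. Alternatives were 12 other settings (pseudocount 0.1, no filter, a mean FPKM of at least 5, rescaling to a fixed total as TPM, median of ratios, quantile normalization, length and GC trends removed with a loess span of 0.3, only the groups compared, library quality weights, a replicate block, VHH-OD-PD-1-Fc as 1 sample, and leaving out Ctrl 1, VHH-OD-Fc 2 and VHH-PD-1-Fc 2) and 12 fits that left out 1 library. Ctrl 1, VHH-OD-Fc 2 and VHH-PD-1-Fc 2, called the 3 libraries that stood apart, were set by name without a stated rule. In their groups the pair of libraries without them had the highest r of log2 values (0.984, 0.982 and 0.963). Calls gained by leaving them out carry that limit. Proteins and the promoters of Tgfb3 and Smad7 were not analysed here, and 1 target gene counted in its list is not reported by itself.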

Additional observations from a re-analysis of the deposited data

How the results depend on the processing

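Over 63 values of the 9 genes and 1496 refits, 1381 kept their side of the threshold, 68 lost the call, 47 gained one and 0 called values changed sign. Among the 1381 were 60 that changed sign without being called in either fit. Inhba was called lower in VHH-PD-1-Fc against Ctrl in all 12 settings (-1.60 to -0.86). Scaling moved the split of all genes called higher and lower: 2092 and 4615 in VHH-PD-1-Fc against Ctrl became 3129 and 2843 with median of ratios and 1346 and 6800 rescaled to TPM, and 2158 and 3878 in VHH-OD-PD-1-Fc became 2909 and 2624, and 1415 and 6192. The median of all genes moved there from -0.19 and -0.14 to -0.01 with median of ratios and to -0.43 and -0.37 with TPM. Removing length and GC trends left 2921 higher and 2215 lower in VHH-PD-1-Fc against Ctrl.

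Of the 9 genes, 2 were called in VHH-PD-1-Fc against Ctrl, and the count moved to 5 with TPM, 4 with median of ratios, 1 with quantile normalization, 4 with length and GC trends removed and 1 with only the groups compared. For VHH-OD-PD-1-Fc against Ctrl, 2 became 5 with TPM, 0 with median of ratios, 1 with quantile normalization, 0 with trends removed, 5 with only the groups compared, 6 with quality weights, 0 with VHH-OD-PD-1-Fc as 1 sample and 5 without the 3 libraries that stood apart. In VHH-PD-1-Fc against VHH-OD-Fc 5 became 2 with trends removed and 2 with only the groups compared. In VHH-OD-PD-1-Fc against VHH-OD-Fc 4 became 2 with no filter, 2 with median of ratios, 0 with trends removed and 0 with VHH-OD-PD-1-Fc as 1 sample. Between the 2 groups with the PD-1 arm 0 became 1 (Smad3) without the 3 libraries. Leaving out 1 library gave 2 to 3, 0 to 4, 3 to 5, 1 to 5 and 0 to 1 in these 5 comparisons, and 0 in the other 2. Calls over all 14306 genes moved as well. For both arms compared with Ctrl they went from 6036 to 7586 with only the groups compared, 9901 with quality weights and 6206 without the 3 libraries. The higher member counts in these settings thus came with more calls over all genes, and do not set the 9 genes apart. The cause of these shifts was not tested.

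Of the 68 other pathway genes, 39 were called in VHH-PD-1-Fc against Ctrl, and 25 with median of ratios, 21 with trends removed and 21 with only the groups compared. For VHH-OD-PD-1-Fc against Ctrl, 29 became 16 with trends removed, 49 with quality weights and 4 with that group as 1 sample. In VHH-PD-1-Fc against VHH-OD-Fc 40 became 26 with median of ratios, 24 with trends removed and 23 with only the groups compared. In VHH-OD-PD-1-Fc against VHH-OD-Fc 35 became 23 with median of ratios, 16 with trends removed and 6 with VHH-OD-PD-1-Fc as 1 sample. Between the groups with the PD-1 arm 2 became 1 with a pseudocount of 0.1, no filter, TPM, median of ratios, quantile normalization, trends removed or only the groups compared, 0 with quality weights, the replicate block or VHH-OD-PD-1-Fc as 1 sample, and 5 without the 3 libraries. For the difference of differences 0 became 1 without the 3 libraries. Leaving out 1 library gave 28 to 42, 20 to 33, 30 to 41, 18 to 41, 0 to 5 and 0 to 1 in the same order, and 0 in VHH-OD-Fc against Ctrl. Over all genes, VHH-PD-1-Fc against VHH-OD-Fc went from 6095 calls to 5711 with median of ratios and 3657 with only the groups compared. With trends removed it had 4693 of 13533. VHH-OD-PD-1-Fc against VHH-OD-Fc went from 5712 to 5384 with median of ratios and 4474 of 13533 with trends removed. VHH-OD-PD-1-Fc against Ctrl went from 6036 of 14306 to 9901 with quality weights and 4668 of 13533 with trends removed. VHH-PD-1-Fc against Ctrl went from 6707 to 5972 with median of ratios and 3821 with only the groups compared. With trends removed it had 5136 of 13533. Between the groups with the PD-1 arm 120 became 524 without the 3 libraries. With VHH-OD-PD-1-Fc as 1 sample fewer of all genes were called too.

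The replicate numbers showed no sign of pairing the libraries: of 18 same-number pairs 1 had an r over 0.1 (-0.15 to 0.18). Labels do not say whether libraries of the same number share an animal, day or batch, and r cannot decide it. With a replicate block, member counts were 2, 2, 5, 4 and 0 in the 5 comparisons and pathway counts 37, 30, 41, 32 and 0. Over all genes VHH-OD-Fc against Ctrl gave 2 calls with no filter and 4 with quality weights. FPKM carry no counts here, so no interval of counting error is given.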
